A study of Mus musculus with 8 samples.

Results

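The cells described here are monocytes of mouse mammary tumors with a high level of *Vcan* and *Thbs1*, 539 of the 11430 deposited cells (4.72%). They were chosen by expression: among 8375 gated cells, termed base cells, they are those in the highest 8% for the summed counts per 10000 of *Vcan*, *Thbs1*, *Dmkn* and *Il18*, without the cells in the highest 6% for *Hp*, *Mgst1*, *Ifitm6* and *F13a1*, which are termed early monocytes. A base cell had 500 to 6000 detected genes, under 10% mitochondrial counts and at least 2000 unique molecular identifiers (UMIs), no more than 1 UMI of the T cell receptor complex genes *Cd3d*, *Cd3e* and *Cd3g* together, and none of *Ncr1*, a receptor gene of natural killer cells. The selected cells made up 6.44% of base cells and are called Vcan/Thbs1-high cells below.

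The study compared the immune cells of tumors grown from E0771, a mouse line of triple-negative mammary carcinoma, with those of tumors grown from E0771-Res1 and E0771-Res2, which were established from E0771 tumors that had relapsed after combined paclitaxel and anti–PD-1 therapy. All 3 lines were implanted into the inguinal mammary fat pad of C57BL/6 mice, whose age is not given in the sources used here, and live CD45+ cells, a surface protein of all blood leukocytes, were sorted on day 18, tagged per mouse with oligonucleotides, pooled and counted by droplet sequencing of 3′ ends. Data came from 2 parental mice (replicates 1 and 3), 3 E0771-Res1 mice and 3 E0771-Res2 mice, with 1 tumor per mouse, and the mouse was the replicate throughout. Each resistant group stands for 1 line, so a property of the line and resistance cannot be told apart within it, and whether a line is a single clone is not given. No cell barcode was shared between mice. The mice gave 5036667 to 18894504 UMIs in all, and 121, 49, 82, 62, 65, 51, 54 and 55 Vcan/Thbs1-high cells, in the order parental replicates 1 and 3, E0771-Res1 replicates 1 to 3 and E0771-Res2 replicates 1 to 3. Summed over the Vcan/Thbs1-high cells, a mouse had 308899 to 974964 UMIs, so the parental replicate 1 sum was the deepest and that of E0771-Res2 replicate 3 the shallowest.

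Classical monocytes leave the bone marrow under the control of the chemokine receptor CCR2, enter inflamed tissue and tumors through the blood, and mature there into macrophages or cells with dendritic features. On this path they lose monocyte genes such as *Ly6c2*, *Plac8* and *Chil3* and acquire macrophage genes such as the C1q subunits and *Ms4a7*. Versican, encoded by *Vcan*, is a large chondroitin sulfate proteoglycan of the extracellular matrix that monocytes make on their own and that binds hyaluronan. Thrombospondin-1, encoded by *Thbs1*, is a secreted trimeric glycoprotein that binds CD47 and CD36, inhibits blood vessel growth and can activate latent TGF-β. IL-18, encoded by *Il18*, is a cytokine that inflammasome caspases release from its precursor, and dermokine, encoded by *Dmkn*, is a secreted protein known mainly from the epidermis. In the mouse genome (build GRCm38, GENCODE M21) *Vcan* lies at chr13:89655312-89742509 on the minus strand, *Thbs1* at chr2:118111876-118127133, *Dmkn* at chr7:30763756-30781063 and *Il18* at chr9:50554827-50581840, the last 3 on the plus strand, and counts are for whole genes and not for exons or isoforms.

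The 4 genes that chose the cells are described first, with no test, since selection on them fixes the difference from other cells. The lowest score of a selected cell was 16.3284 per 10000 and the highest of a cell outside was 16.3154, against a median of 25.8 among the selected cells, a highest value of 124.6 and a median of 0.932 among base cells outside both selections. The score has no gap at the threshold: 123 selected cells (22.8%) lay within 20% above it and 153 other cells within 20% below it, so the selection is a range of a continuous score, and whether the cells form a separate type was not tested. Of the 670 base cells above the threshold, 131 were early monocytes and were left out.

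*Thbs1* carried most of the score. It gave 64.6% of the UMIs of the 4 genes in the selected cells, against 21.6% for *Vcan*, 7.02% for *Dmkn* and 6.83% for *Il18*. All 4 genes were detected in 108 cells (20.0%), 3 in 206 (38.2%), 2 in 165 (30.6%) and 1 in 60 (11.1%), and *Vcan* and *Thbs1* occurred together in 382 cells (70.9%). In counts per 1000000 (CPM) of the summed UMIs of these cells, *Thbs1* stood at 2210 and 2246 in the parental mice, 1828, 2327 and 1800 in the E0771-Res1 mice and 1738, 1912 and 1722 in the E0771-Res2 mice. *Vcan* stood at 656 and 858, then 813, 824 and 601, and then 301, 614 and 602 CPM in the same order. The 8 mice thus spanned a narrow range for *Thbs1* and a wider one for *Vcan*, with E0771-Res2 replicate 1 lowest.

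*Dmkn* reached 351 CPM in both E0771-Res1 replicates 2 and 3 and was lowest in E0771-Res2 replicate 3, at 93.9 CPM. *Il18* ran from 148 CPM in E0771-Res1 replicate 2 to 259 CPM in E0771-Res2 replicate 3. Outside the selection, early monocytes had the next levels, with medians over the 8 mice of 676 CPM for *Thbs1* and 319 CPM for *Vcan*, while the base cells outside both selections, termed other base cells, had 106 and 55.3 CPM. A UMI of *Thbs1* was found in 94.6% of the selected and 29.1% of other base cells, and a UMI of *Vcan* in 76.3% and 16.6%, at median depths of 7197 and 7250 UMIs. With every cell thinned to 2000 UMIs, the shares were 87.4% and 14.9% for *Thbs1* and 57.9% and 7.05% for *Vcan*. T cells, which should lack both genes, had a UMI of *Thbs1* in 24.8% and of *Vcan* in 14.4% of 1058 cells at a median of 9310 UMIs, and in 10.21% and 5.86% when thinned. The shares in the selected cells were above those in T cells and in other base cells at either depth.

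The selected cells differed among themselves by which of the 4 genes was highest. *Thbs1* led in 402 cells, *Vcan* in 98, *Dmkn* in 27 and *Il18* in 12. Cells led by *Thbs1* had more *Hilpda*, a lipid droplet gene induced by hypoxia, at 305 CPM against 93.7 CPM in cells led by *Vcan*, and this order held in 8 of 8 mice. They also had more *Inhba*, the βA subunit of activin A, at 143 against 71.0 CPM (7 of 8 mice), and more *Ptgs2*, the inducible prostaglandin synthase COX-2, at 546 against 375 CPM (7 of 8 mice). Cells led by *Vcan* had more of the monocyte genes *Plac8*, at 5785 against 4576 CPM (8 of 8 mice), and *Ly6c2*, at 3240 against 2439 CPM (7 of 8 mice), and less *C1qa*, at 145 against 362 CPM (lower in 7 of 8 mice). With 4 to 22 cells led by *Vcan* per mouse these values are given with no test, and the division itself uses 2 of the genes that chose the cells.

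The monocyte label held against markers that took no part in the selection. Lysozyme (*Lyz2*), the chitinase-like protein *Chil3* and *Plac8* were far above their levels in other base cells in each mouse, and the C1q genes and *Ms4a7* were far below. *Plac8*, a cysteine-rich protein gene of monocytes and granulocytes (chr5:100553725-100572245, minus strand), stood at 5341 and 6849 CPM in the parental mice, 5200, 3295 and 5428 in E0771-Res1 mice and 4438, 4482 and 3720 in E0771-Res2, against 1350 to 2718 in other base cells. *Chil3* (chr3:106147554-106167564, minus strand) stood at 1249 and 2071, 1577, 1534 and 893, and 1114, 2304 and 1084 CPM in the same order, against 197 to 444 CPM. For both genes the lowest selected sum was above the highest sum of other base cells. *C1qa* stood at 408 and 129, 271, 139 and 343, and 265, 329 and 528 CPM, against 1457 to 2737 in other base cells and 7382 to 8482 in C1q-high macrophages, which are the highest 8% of base cells for *C1qa*, *C1qb* and *C1qc* outside both selections (669 cells, counted among the other base cells too). The order of the 4 sets was early monocytes, Vcan/Thbs1-high cells, other base cells and C1q-high macrophages by falling *Plac8*, *Chil3* and *Lyz2*, and the reverse by *C1qa* and *Ms4a7*, taking the median of the 8 mice. *Chil3* and *Ly6c2* have close paralogs, *Chil4* and *Ly6c1*, with which reads may be shared.

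**Figure D1:**
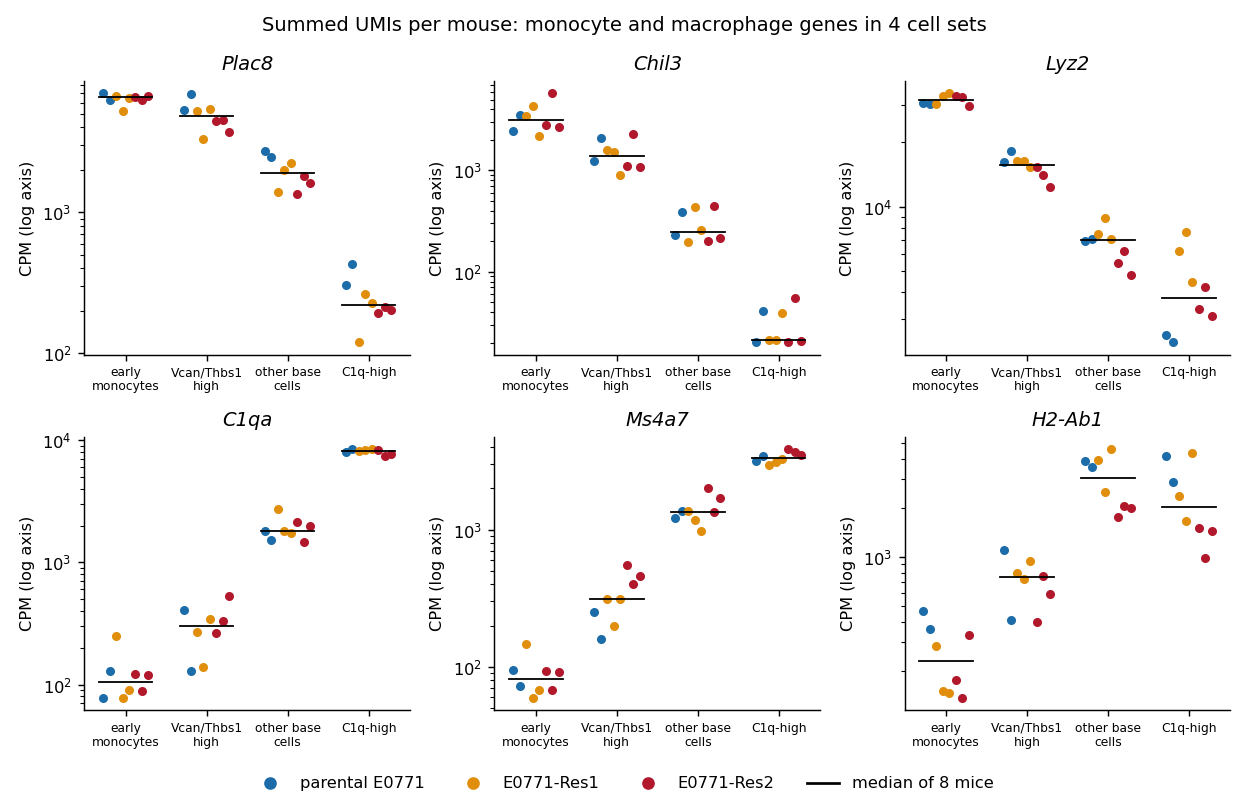
Counts per 1000000 UMIs (CPM) (log axis) of 3 monocyte genes (top) and of 2 macrophage genes and an MHC class II gene (bottom) in 4 sets of base cells. Each point is the summed UMIs of 1 mouse and the line is the median of the 8 mice. Vcan/Thbs1-high cells lie between early monocytes and other base cells in all 6 panels, for example at a median of 4841 CPM for *Plac8* and 300.1 CPM for *C1qa*.

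Markers of other cell types were near 0 in the selected cells, with 1 exception. Summed over the list, 8 conventional dendritic cell markers reached a mean of 23.6 CPM (*Flt3* at 0), 6 mature dendritic cell markers 25.7 CPM, 8 plasmacytoid dendritic and B cell markers 10.1 CPM (2 at 0), 8 T and NK cell markers 70.5 CPM and 8 tumor or stromal markers 22.2 CPM (3 at 0). The low T and NK sum was set in advance by the limits on Cd3 and *Ncr1* UMIs of base cells. It is no support for the label, and other base cells had 128 CPM. The neutrophil markers were the exception. Their sum was 94.4, 76.8, 58.2, 293, 73.9, 134, 1404 and 64.7 CPM, with E0771-Res2 replicate 2 far above the rest. *S100a8* and *S100a9*, calcium-binding proteins of neutrophils and early monocytes, made up most of that sum, and 1 cell held 161 of the 162 *S100a8* and 339 of the 340 *S100a9* UMIs of that mouse's selected cells. *Ly6g*, the defining neutrophil marker, was at 0, as were 3 of the 8 neutrophil markers in all. Without this mouse the log2 difference from other base cells went from 1.75 to -0.03 for *S100a9* and from 1.43 to -0.14 for *S100a8*. The selected cells of E0771-Res1 replicate 2 held 31 *S100a8* and 77 *S100a9* UMIs, with up to 23 and 42 in 1 cell. Without E0771-Res1 replicate 2, *S100a8* and *S100a9* missed the threshold as well (edgeR, adjusted p = 0.0622 and 0.106). These genes are taken up again only where the dependence on processing is described.

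Vcan/Thbs1-high cells made up a smaller share of base cells in E0771-Res2 than in parental tumors, without overlap between the mice. The share was 14.1% (121 of 861 cells, exact 95% interval 11.8 to 16.6) and 10.3% (49 of 478, 7.68 to 13.3) in the parental mice, 5.13%, 12.8% and 8.93% in the E0771-Res1 mice and 3.38%, 4.60% and 3.56% in the E0771-Res2 mice. E0771-Res2 mice lay below every other mouse, while the E0771-Res1 mice ran from near the E0771-Res2 level up into the parental range. The gap between the resistant lines depended on the selection. On thinned cells E0771-Res2 replicate 2 (94 of 1173) was above E0771-Res1 replicate 1 (122 of 1597). With early monocytes above the threshold counted too, these mice stood at 6.82% and 6.07%. The exact permutation p between the lines was 0.2 in both alternatives. Parental mice averaged 12.2% ± 2.69 (SD, n = 2), E0771-Res1 mice 8.95% ± 3.82 (SD, n = 3) and E0771-Res2 mice 3.85% ± 0.660 (SD, n = 3). The difference between E0771-Res2 and parental mice was -8.30 percentage points (two-sided exact permutation test over 10 splits, p = 0.1, the smallest this design allows, adjusted p = 0.143 over 4 comparisons). Between E0771-Res2 and E0771-Res1 it was -5.10 points (exact p = 0.1, adjusted p = 0.143). With 3 mice in each group, 0.1 is the smallest p that a two-sided test allows. Between E0771-Res1 and parental mice the difference was -3.20 points (exact p = 0.4, adjusted p = 0.4). All 6 resistant mice together lay 5.75 points below the parental mice (6.40% against 12.2%, exact p = 0.107, where 0.0357 is the smallest possible, adjusted p = 0.143). None of the 4 differences passed 0.05. Without E0771-Res1 replicate 2 the last difference was -7.03 points with an exact p of 0.0476, unadjusted.

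The threshold was common to all mice and the share is a part of base cells. Fewer such cells, less of the 4 genes per cell and more of the other base cells therefore cannot be told apart. Base cells numbered 861 and 478 in the parental mice and 1508, 1173 and 1545 in the E0771-Res2 mice. The median score over all base cells was 2.90 and 2.18 in the parental mice, 1.08, 2.98 and 2.04 in E0771-Res1 mice and 1.00, 1.20 and 0.828 in E0771-Res2, the same order of groups as for the share. Depth was lower in E0771-Res2 mice too, but did not set E0771-Res1 mice apart from parental mice. The median UMIs per base cell were 7207, 5986 and 5871 in the 3 E0771-Res2 mice, below the 7900 to 8472 of all 5 other mice. With every cell thinned to 2000 UMIs before selection, 799 cells were selected, 461 of them among the 539. The difference between E0771-Res2 and parental mice was then -8.08 points. That selection held more cells in every mouse, so its difference does not compare directly in size with that of the reported selection. The part of depth in the difference was not tested. The share of early monocytes showed no such split, at 7.90% and 9.83% in parental, 4.32%, 8.66% and 7.55% in E0771-Res1 mice and 4.58%, 8.70% and 3.30% in E0771-Res2 mice.

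**Figure D2:**
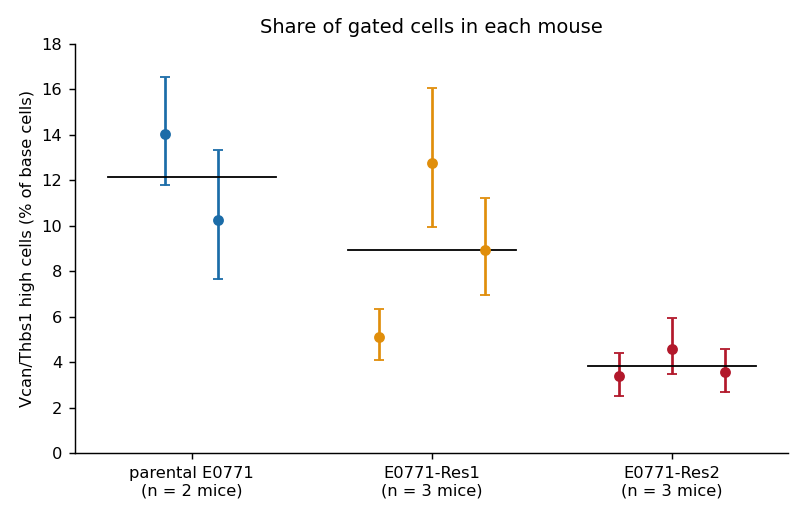
Share of base cells (%) that were Vcan/Thbs1-high in each mouse, by tumor line. Points are mice, bars are exact 95% intervals, which cover counting error only, and lines are group means; the 3 E0771-Res2 mice lie between 3.38% and 4.60%, and the 2 parental mice at 10.3% and 14.1%.

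Against other base cells, the monocyte markers and most of the hypoxia, glycolysis and interferon response genes tested were higher in Vcan/Thbs1-high cells. Matrix and IL-1 genes were higher in part, and most macrophage and MHC class II genes tested were lower. Of 8232 genes tested, 1658 (20.1%) were higher and 1459 (17.7%) lower by edgeR's quasi-likelihood test with mouse as a block. These counts are the background for all lists below and are no finding, since the cells were chosen by expression in the same contrast. Log2 differences are given with their standard error (SE, n = 8 mice) as descriptions, and the median over all genes tested was -0.04.

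All 10 monocyte markers were higher (median log2 difference 1.39), with *Chil3* at 2.46 ± 0.10 and *Fn1*, fibronectin, at 2.38 ± 0.11, and *Ly6c2* was at 0.64, higher in 7 of 8 mice. *Plac8* was higher by 1.45, *Lyz2* by 1.34 and *Ccr2* by 1.14. Of 10 macrophage markers, 9 were lower and none higher (median -1.42), led by *C1qa* at -2.58 ± 0.14, with *Ms4a7* at -2.00 and the lipid carrier *Apoe* at -1.13. Of 12 genes of MHC class II presentation, 11 were lower and none higher (median -1.41), among them *H2-Ab1* at -1.94 and *Cd74*, the invariant chain, at -1.41. Within Vcan/Thbs1-high cells 8 of the 10 macrophage markers and 9 of the 12 MHC class II genes passed the filter on low counts, so the others passed it here only through other base cells.

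Matrix, adhesion and coagulation genes other than *Vcan* and *Thbs1* were higher in part, with 12 of 22 higher and 4 lower (median 0.93) and 20 of the list passing the filter within Vcan/Thbs1-high cells. Higher were *Emilin2*, an elastin microfibril protein, at 1.63, *Cd44*, the hyaluronan receptor, at 1.33, and the coagulation factor gene *F10*, at 456 CPM (median of 8 mice) against 185 CPM. *Spp1*, osteopontin, was higher by 0.95 but in 6 of 8 mice only, and missed the threshold with DESeq2 (0.82, adjusted p = 0.0729). The 4 lower genes were *Timp2*, *Mmp14*, *F7* and *Plau*, and *Tgfbi*, a TGF-β-induced matrix protein, had a median of 1082 CPM against 1131 CPM. Of 16 genes for TGF-β and thrombospondin receptors and their signaling, 6 were higher, among them *Tgfb1*, *Furin* and *Cd47*, and 4 lower, among them the receptor genes *Tgfbr1* and *Tgfbr2* (median 0.11).

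Genes of hypoxia and glycolysis moved in 1 direction, with 21 of 24 higher and none lower (median 0.88). *Vegfa*, the main growth factor for blood vessels, stood at 79.0 and 27.4 CPM in the parental mice, 65.5, 127 and 78.0 in E0771-Res1 mice and 103, 73.7 and 152 in E0771-Res2, against 18.3 to 30.4 CPM in other base cells. Only parental replicate 3 fell within the range of other base cells. The log2 difference was 1.87 ± 0.15. *Slc16a3*, the lactate exporter MCT4, was higher by 1.37, *Hif1a*, the oxygen-regulated transcription factor, by 1.29, and the glycolytic enzyme *Pkm* by 0.93.

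Inflammatory genes were higher in part. Of 17 inflammasome and IL-1 family genes 11 were higher and 1, the IL-18 binding protein *Il18bp*, was lower (median 0.46). They included *Il1rap*, the shared subunit of IL-1 receptors, at 1.70, *Mefv*, which encodes pyrin, at 0.92, and *Il1b* at 0.61, higher in 7 of 8 mice. *Ptgs2* stood at 534 and 302 CPM in the parental mice, 416, 1048 and 392 in E0771-Res1 mice and 362, 453 and 204 in E0771-Res2, each above the 83.7 to 187 CPM of other base cells (log2 difference 1.95 ± 0.12). Of 18 innate receptor genes 7 were higher and 2 lower, with *Clec4d* at 1.44, *Cd14*, the lipopolysaccharide co-receptor, at 1.44 and *Clec4e* at 1.40 among the higher ones. Within Vcan/Thbs1-high cells 14 of the 17 and 12 of the 18 genes of these 2 lists passed the filter on low counts, and the others passed it here only through other base cells. Of 21 interferon response genes, 15 were higher and 2 lower (median 0.42), with *Gbp2* at 1.05, *Rsad2*, an antiviral enzyme, at 1.04 and *Isg15* at 0.44. With cells selected by *Vcan* and *Thbs1* alone *Isg15* was at 0.18 and missed the threshold (adjusted p = 0.078).

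The chemokine list was divided, with 6 of 15 higher and 6 lower. Fewer of its genes passed the filter on low counts in the comparison with early monocytes. Some of the lower genes may thus have passed it here only through other base cells. *Ccl6* was higher by 1.45 and the neutrophil attractant *Cxcl2* by 0.75 (6 of 8 mice), while *Ccl8* was at -2.55 and *Cxcl16*, a membrane-bound chemokine of macrophages, at -1.40. Of 12 suppressive myeloid genes, 9 were higher and 1 lower (median 0.64), among them heme oxygenase *Hmox1* at 0.97. Of 20 lipid-associated macrophage genes, 5 were higher and 10 lower (median -0.41). The limit given for the chemokines holds for this list and the suppressive myeloid genes too. *Slpi*, a secreted inhibitor of leukocyte proteases (chr2:164354070-164389095, minus strand), was among the largest differences at 2.12 ± 0.15, and the largest 10 also held the nuclear receptor gene *Nr4a2* at 1.90, *Smox*, a polyamine oxidase, at 1.87, *Gsr*, glutathione reductase, at 1.84 and *Xylt1*, which starts the sugar chains of proteoglycans, at 1.81. Of 18 cell cycle genes, 3 passed the filter on low counts within Vcan/Thbs1-high cells and 14 in the comparison with other base cells, so most of the latter passed it only through the set in which they were higher, and no count is given for this list. Of 18 immediate early and dissociation stress genes, 9 were higher and none lower (median 0.24), and their part in the other differences was not tested. The median mitochondrial share was 1.82% in Vcan/Thbs1-high and 1.36% in other base cells.

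Early monocytes were the closest set by monocyte markers, and the comparison with them described what Vcan/Thbs1-high cells had in addition. Most hypoxia and glycolysis genes, *Spp1*, *Inhba* and *Il1b* were higher, most macrophage and MHC class II genes tested had higher summed counts though still below other base cells, and several monocyte genes were lower. Of 4398 genes tested, 835 (19%) were higher and 806 (18.3%) lower, with a median of 0.02. Early monocytes had been removed from the selection by *Hp*, *Mgst1*, *Ifitm6* and *F13a1*, so these counts too are a background and not a finding.

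*Spp1* (chr5:104435118-104441050, plus strand) stood at 299 and 137 CPM in the parental mice, 615, 1257 and 570 in E0771-Res1 mice and 1068, 356 and 201 in E0771-Res2, against 16.2 to 105 CPM in early monocytes. The sets did not overlap, and the log2 difference of 3.44 ± 0.29 was the largest of the higher genes named by the rule. *Inhba* stood at 89.2 and 24.7 CPM, 182, 279 and 49.2, and 140, 60.6 and 142 CPM, against 3.58 to 39.0 CPM in early monocytes, where 1 mouse exceeded the lowest selected sum (2.76 ± 0.32). *Il7r*, the IL-7 receptor chain, was higher by 3.26 ± 0.33, *C3ar1*, a complement receptor, by 2.56 ± 0.16, *Gpnmb*, a glycoprotein of lipid-laden macrophages, by 2.55, and the endocytic adaptor *Dab2* by 2.52. *Mmp14*, a membrane-bound metalloproteinase, was higher by 2.48 and *Sdc4*, a heparan sulfate proteoglycan, by 2.46.

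Of 22 hypoxia and glycolysis genes, 20 were higher and none lower (median 0.89). *Hilpda* stood at 179 and 170 CPM in the parental mice, 320, 496 and 193 in E0771-Res1 mice and 195, 166 and 382 in E0771-Res2, all above the 25.1 to 84.8 CPM of early monocytes and also above the 82.4 to 136 CPM of other base cells. *Bnip3*, a mitophagy receptor induced by hypoxia, was higher by 2.32, the glycolytic enzyme *Tpi1* by 1.53, the cytokine *Mif* by 1.41 and lactate dehydrogenase *Ldha* by 0.87. Of 9 suppressive myeloid genes 7 were higher and none lower (median 1.15), with *Ptgs2* at 1.92 and *Hmox1* at 1.70. *Hmox1* was uneven across mice, from 151 CPM in parental replicate 3 to 2112 CPM in E0771-Res1 replicate 2.

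Among 17 lipid-associated macrophage genes 12 were higher and 2 lower (median 1.01), among them the tetraspanin *Cd63* at 2.30, the fatty acid binding protein *Fabp5* at 2.01 and the lipid droplet coat *Plin2* at 1.49. Of 9 MHC class II genes, 7 were higher and 1 lower (median 1.48), including *Cd74* at 1.53 and *H2-Ab1* at 1.52. *H2-Ab1* stood at 1112 and 411 CPM, 802, 730 and 950, and 396, 769 and 592 CPM, against 136 to 463 CPM in early monocytes and 1752 to 4618 CPM in other base cells. The selected cells thus overlapped slightly with early monocytes and not with other base cells. Of 8 macrophage markers 5 were higher and none lower (median 1.34), with *Mrc1*, the mannose receptor, at 2.15 in 7 of 8 mice, *Ms4a7* at 1.88 and *C1qb* at 1.37. T cells, which should lack these markers, held several of them at least as often. A UMI of *C1qa* was found in 53.4% of the selected cells and 71.6% of T cells (30.4% and 41.7% with every cell thinned to 2000 UMIs), of *Ms4a7* in 52.1% and 71.6% (27.6% and 46.0%) and of *H2-Aa* in 67.2% and 76.4% (40.6% and 46.0%). For *Mrc1* the shares were 21.3% and 22.6% (10.4% and 7.84%). Shares at or below those in T cells are not read as expression by the selected cells, and the parts of free RNA and of doublets, which were kept, were not tested.

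Of 10 monocyte markers 6 were lower and 3 higher (median -0.42). Lower were *Fn1* at -1.31, *Chil3* at -1.22, *Lyz2* at -1.05 and *Plac8* at -0.44, while *F10* was among the higher ones, and *Ly6c2* had a log2 difference of 0.13 with 4 of 8 mice on each side, which did not pass the test but did with the highest 12% of cells (0.17, adjusted p = 0.0481) and without E0771-Res2 replicate 3 (0.18, adjusted p = 0.0377). Among the genes lower than in early monocytes were *Cd300lg* at -2.96, *Cx3cr1*, the fractalkine receptor of patrolling monocytes and tissue macrophages, at -2.56, *Serpinb1a*, an inhibitor of neutrophil elastase, at -2.27 and the transcription factor *Klf2* at -1.13. Of 17 immediate early and stress genes, 8 were lower and 3 higher (median -0.18), with *Ier2* at -0.88 and *Jun* at -0.50, so this list lay on opposite sides of 0 in the comparisons with early monocytes and with other base cells.

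Inflammatory genes differed in part between the monocyte sets. *Il1b* was higher than in early monocytes by 1.37 and its antagonist *Il1rn* by 2.10, while 4 of 12 genes of the inflammasome and IL-1 list were higher and 1 lower. *Il1b* stood at 2953 and 2386 CPM in the parental mice, 2644, 4201 and 1728 in E0771-Res1 mice and 2091, 1338 and 1593 in E0771-Res2, against 641 to 1425 CPM in early monocytes, and the lowest selected sum lay within that range. Of 21 interferon response genes 13 were higher and none lower (median 0.57), among them *Isg15* at 0.78 and *Irf7*, a transcription factor of interferon induction, at 0.75. Of 12 chemokines 7 were higher and 1 lower (median 1.02), with *Cxcl16* at 2.11 and *Ccl5* at 2.06. Of 10 chemokine and chemoattractant receptors 7 were higher and 2 were lower, *Cx3cr1* and *Ccr2*, the latter at -0.41. Of 15 genes of TGF-β and thrombospondin receptors, 9 were higher and none lower (median 0.49), with the inhibitory *Smad7* at 0.88 and *Furin*, a protease that cuts the TGF-β precursor, at 0.79.

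**Figure D3:**
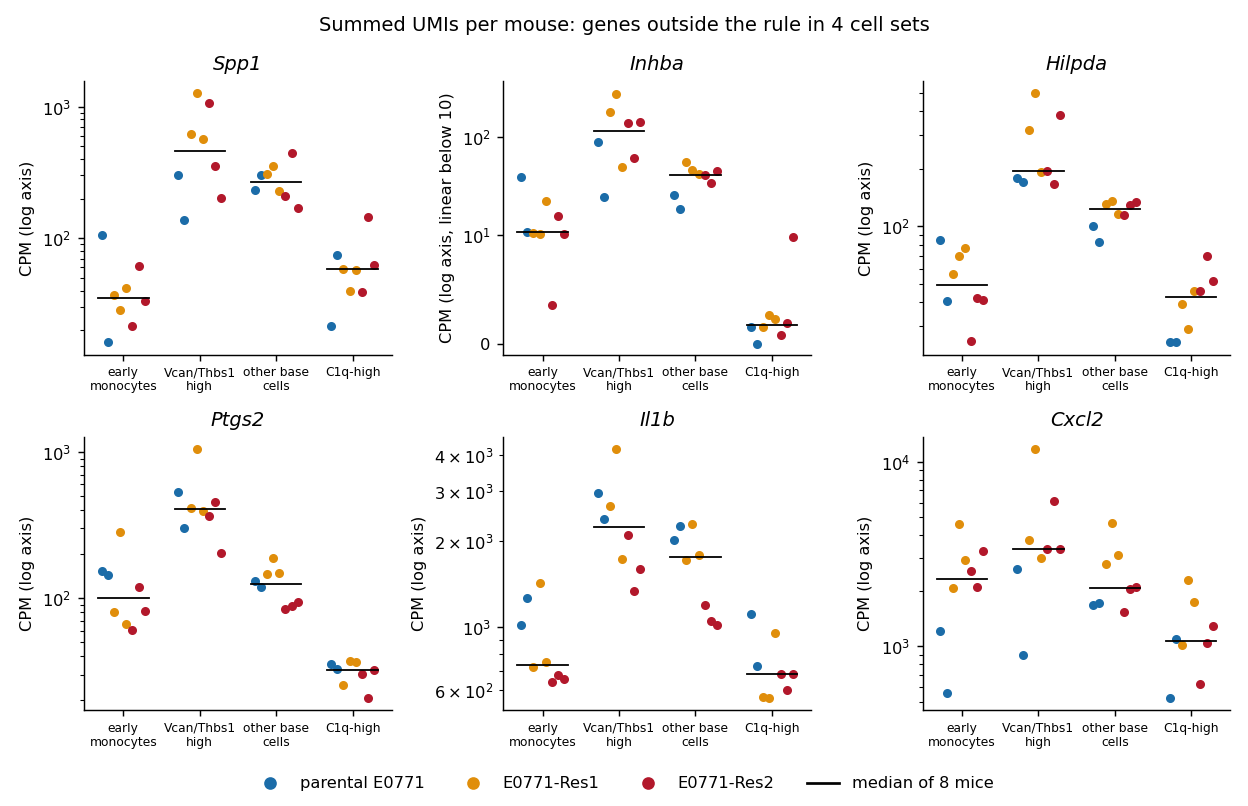
Counts per 1000000 UMIs (CPM) (log axis; linear below 10 for *Inhba*) of 6 genes outside the selection rule in 4 sets of base cells. Each point is the summed UMIs of 1 mouse and the line is the median of the 8 mice. In all 6 panels the median is highest in Vcan/Thbs1-high cells, at 463 CPM for *Spp1* and 404 CPM for *Ptgs2*, but all 8 selected sums lie above every sum of the other 3 sets for *Hilpda* only, and the selected cells overlap with at least 1 other set for the remaining 5 genes.

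**Figure D4:**
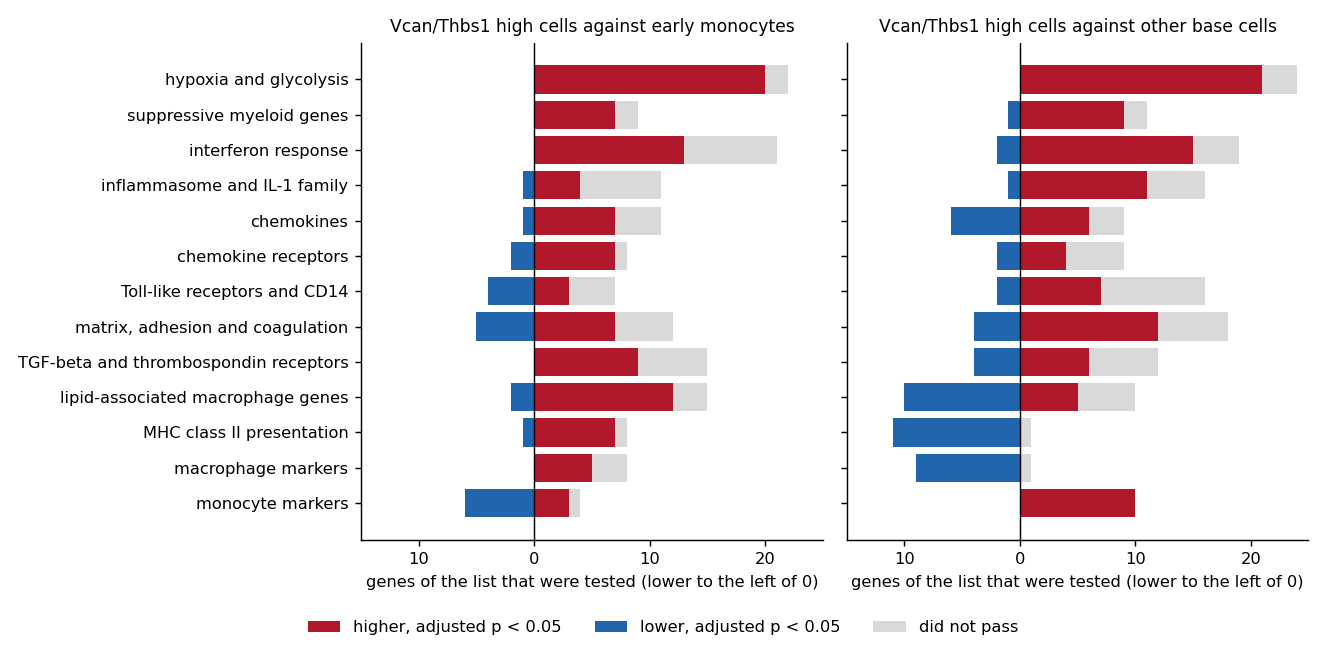
Number of tested genes of 13 lists that were higher (red), lower (blue) or did not pass an adjusted p of 0.05 (gray) in Vcan/Thbs1-high cells, against early monocytes (left) and other base cells (right). Hypoxia and glycolysis genes were higher in both comparisons (20 of 22 and 21 of 24), while MHC class II and macrophage genes were mostly higher than in early monocytes and mostly lower than in other base cells; the lists were written with earlier results known and the counts are descriptions.

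C1q-high macrophages were the most distant of the 3 sets. Of 4810 genes tested, 1458 (30.3%) were higher and 1472 (30.6%) lower in Vcan/Thbs1-high cells, with the C1q genes left out. All 10 monocyte markers were higher. Among macrophage markers *Ms4a7* was at -3.39, *Apoe* at -2.76 and the lipid receptor *Trem2* at -2.27, and no count is given for this list, since sparse markers passed the filter on low counts only through the C1q-high macrophages. *Chil3* was higher by 5.75, *Fn1* by 4.49, *Plac8* by 4.41 and *F10* by 4.17. *Slpi* and *Inhba* were higher by 5.37 and 5.59 in the fit, but both genes were at 0 in at least 1 mouse of the C1q-high macrophages, where the fitted size depends on the prior count and is no bound.

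The hypoxia and glycolysis list was again in 1 direction, with 20 of 22 higher and none lower (median 1.26), among them *Hilpda* at 2.66 and the glycolytic enzyme *Pfkp* at 2.53. *Ptgs2* was higher by 3.81, *Spp1* by 3.16, the decoy receptor *Il1r2* by 2.84 and *Rsad2* by 2.13. MHC class II genes were lower in 8 of 9 (median -1.06), with *Cd74* at -1.06, and *Ccl8* was at -4.72. Of 20 lipid-associated macrophage genes, 4 were higher and 10 lower (median -0.46). C1q-high macrophages were also the deepest cells, at a median of 10454 UMIs against 7197.

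Between tumors, the comparisons within Vcan/Thbs1-high cells are tests on mice that the selection did not use as groups. Few genes differed. Of 4928 genes tested, 10 (0.203%) differed between E0771-Res2 and parental mice at an adjusted p under 0.05 by edgeR's quasi-likelihood test, 9 of them higher in E0771-Res2. Between E0771-Res2 and E0771-Res1 3 genes (0.0609%) differed, none (0%) between E0771-Res1 and parental mice and none (0%) between all resistant and parental mice. At an unadjusted p under 0.05 there were 501, 460, 269 and 384 genes in the same order, and DESeq2 called 14, 7, 0 and 3. A mouse had 49 to 121 selected cells. Genes outside the 4928 were left out here, and whether differences in them could be detected was not tested.

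*Gpnmb* (chr6:49036546-49070929, plus strand) stood at 79.0 and 118 CPM in the parental mice, 78.2, 146 and 179 in E0771-Res1 mice and 441, 290 and 576 in E0771-Res2. The 3 E0771-Res2 mice were above all others, with a log2 difference of 2.25 ± 0.32 (SE) from parental (edgeR, adjusted p = 0.00324) and 1.74 ± 0.27 from E0771-Res1 mice (adjusted p = 0.00969). Without parental replicate 1 the first adjusted p was 0.0751, and without E0771-Res2 replicate 1 or 3 the second was 0.0759 and 0.172. The second was also 0.0701 with the highest 5% of cells and 0.164 with cells selected within each mouse. The difference from parental mice was 2.13 in other base cells (adjusted p = 1.67e-04) and -0.07 in early monocytes (adjusted p = 0.986), where *Gpnmb* had a median of 29.3 CPM.

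*Rgs1*, a regulator that dampens chemokine receptor signaling (chr1:144242296-144249242, minus strand), stood at 336 and 378 CPM in the parental mice, 509, 404 and 636 in E0771-Res1 mice and 1053, 932 and 1515 in E0771-Res2. The E0771-Res2 mice again did not overlap with the others. *Rgs1* was higher than in parental mice by 1.76 ± 0.22 (adjusted p = 0.0011) and than in E0771-Res1 mice by 1.22 ± 0.18 (adjusted p = 0.00969). In other base cells *Rgs1* was more abundant, at 1224 to 2301 CPM, and higher in E0771-Res2 than in parental mice by 0.77 (adjusted p = 9.81e-04). *Slfn4*, an interferon-inducible schlafen gene of myeloid cells (chr11:83175186-83190216, plus strand) with close paralogs beside it, stood at 463 and 510 CPM, 549, 426 and 334, and 746, 790 and 1253 CPM, and was higher in E0771-Res2 than in E0771-Res1 mice by 1.12 ± 0.20 (adjusted p = 0.0445). Against E0771-Res1 mice, *Rgs1* missed the threshold without E0771-Res2 replicate 1 or 3 (adjusted p = 0.0682 and 0.157), and *Slfn4* without either of these (0.0759 and 0.379) or E0771-Res1 replicate 2 or 3 (0.103 and 0.193). Both also missed it on thinned cells (0.0919 and 0.0608), with the highest 5% (0.253 and 0.0701) and with selection within each mouse (0.164 and 0.177), and *Slfn4* with only the mice of the 2 groups (0.0662).

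Of the immediate early genes, *Jun* and *Dusp1* were higher in E0771-Res2 than in parental mice. *Jun* stood at 585 and 321 CPM in the parental, 975, 693 and 486 in the E0771-Res1 mice and 861, 1462 and 1615 in the E0771-Res2 mice, a log2 difference of 1.57 ± 0.30 between E0771-Res2 and parental (adjusted p = 0.0296). *Dusp1*, a phosphatase that switches off MAP kinases, was higher by 1.07 ± 0.18 (adjusted p = 0.0227). *Jun* missed the threshold without E0771-Res2 replicate 2 or 3 (0.0697 and 0.235) or parental replicate 3 (0.356), and *Dusp1* without E0771-Res2 replicate 3 (0.101) or parental replicate 1 or 3 (0.0751 and 0.260). *Jun* also missed it with the highest 5% of cells (0.128), within each mouse (0.0576) and with *Vcan* and *Thbs1* alone (0.0833). Both were higher in E0771-Res2 early monocytes as well, *Jun* by 1.90 (adjusted p = 2.13e-04) and *Dusp1* by 1.21 (adjusted p = 0.00557), and in other base cells by 0.76 and 0.49. These 2 were the called genes of the 18 in the immediate early and dissociation stress list, whose median difference was 0.75, against 0.00 over all genes. The part of tissue dissociation, which was done with an enzyme and warming in all groups, was not tested.

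Markers of lipid-laden and mature macrophages followed. *Cd63* was higher in E0771-Res2 than in parental mice by 0.98 ± 0.18 (adjusted p = 0.0286) and *Ms4a7* by 1.21 ± 0.22 (adjusted p = 0.0289), from 251 and 159 CPM in the parental mice to 551, 400 and 463 CPM in the E0771-Res2 mice. With *Gpnmb*, *Cd63* made 2 of 20 lipid-associated macrophage genes that were called (median 0.68), and *Ms4a7* was 1 of 8 macrophage markers (median 0.57). The remaining higher genes were *Plk2*, a stress-induced kinase, *Hist1h1e*, a linker histone, and *Ptms*, parathymosin, at 1.98 ± 0.37, 1.70 ± 0.30 and 1.08 ± 0.22 (adjusted p = 0.0296, 0.0286 and 0.0481). *Nr4a2* was the only gene lower, at 211 and 230 CPM in the parental, 140, 162 and 140 in the E0771-Res1 mice and 100.4, 119 and 97.1 in the E0771-Res2 mice (-0.99 ± 0.19, adjusted p = 0.0411). All 6 genes of this paragraph missed the threshold without E0771-Res2 replicate 3 (adjusted p = 0.101 for *Cd63* to 0.242 for *Nr4a2*) and without parental replicate 3 (0.136 for *Hist1h1e* to 0.356 for *Nr4a2*). Without parental replicate 1 *Plk2*, *Hist1h1e*, *Ptms*, *Cd63* and *Nr4a2* did so (0.122 for *Nr4a2* to 0.169 for *Hist1h1e*), without E0771-Res2 replicate 1 *Cd63*, *Ms4a7* and *Nr4a2* (0.0762, 0.0911 and 0.118), and without E0771-Res2 replicate 2 *Ptms* (0.0556). Among other alternatives, all 6 missed it with the highest 5% of cells (0.0859 for *Hist1h1e* and *Ms4a7* to 0.352 for *Plk2*), *Plk2*, *Ms4a7*, *Ptms* and *Nr4a2* without cells with a gene of another cell type (0.0507 to 0.0748), *Plk2*, *Hist1h1e* and *Nr4a2* with *Vcan* and *Thbs1* alone (0.0674, 0.0833 and 0.0833), *Hist1h1e* and *Ms4a7* on thinned cells (0.0838 and 0.0736) and *Cd63* within each mouse (0.0784). The share of selected cells with a UMI of *Ms4a7* lay below that of T cells, as given above.

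Of these 10 genes, 9 also differed in the same direction between E0771-Res2 and parental mice in other base cells at an adjusted p under 0.05, the exception being *Ms4a7* at 0.37 (adjusted p = 0.186). In that larger set 562 of 10547 genes differed. Hypoxia and glycolysis genes, which set Vcan/Thbs1-high cells apart from early monocytes, had none of 23 called between E0771-Res2 and parental mice (median 0.07). None of 9 MHC class II genes was called either (median -0.25). Only 0.203% of all genes tested were called in this comparison. A count of 0 is thus near the background for lists of this size and is no result about either list. In other base cells, a set of 7333 cells with more calls, 7 of 12 MHC class II genes were lower (median -0.80). Whether the 2 sets differ in this was not tested for the lists. *Cd74* was called lower on thinned cells (-0.66, adjusted p = 0.0245) and with the highest 12% of cells (-0.73, adjusted p = 0.0130), but stood at 0.016 with cells selected within each mouse and at 0.12 without parental replicate 1. *Cxcl2* was at 1.35 ± 0.48 (adjusted p = 0.296), *Spp1* at 1.30 ± 0.49 (adjusted p = 0.336) and *Il1b* at -0.62 ± 0.26 (adjusted p = 0.389), none of them past the threshold, but without the filter on low counts *Cxcl2* and *Spp1* passed it at 1.28 and 1.23 (adjusted p = 1.15e-13 and 1.004e-07). *Klf2*, *Ccl3* and *Timp1* were not called either, but also passed without the filter. Without it the log2 differences of *Cxcl2* and *Spp1* were no larger, while the count of called genes rose from 10 to 105. Passing in that setting alone is thus not read as a difference between the tumors. *Klf2* was called with DESeq2 (1.55, adjusted p = 0.00243). With edgeR it was called on thinned cells (1.44, 0.0232), with the highest 12% (1.17, 0.0496) and with only both groups (1.51, 0.0480). Without E0771-Res2 replicate 1, *Klf2* (1.79, 0.0118) and *Timp1* (-5.26, 0.0163) passed, and *Ccl3* with only both groups (1.43, 0.00476).

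**Figure D5:**
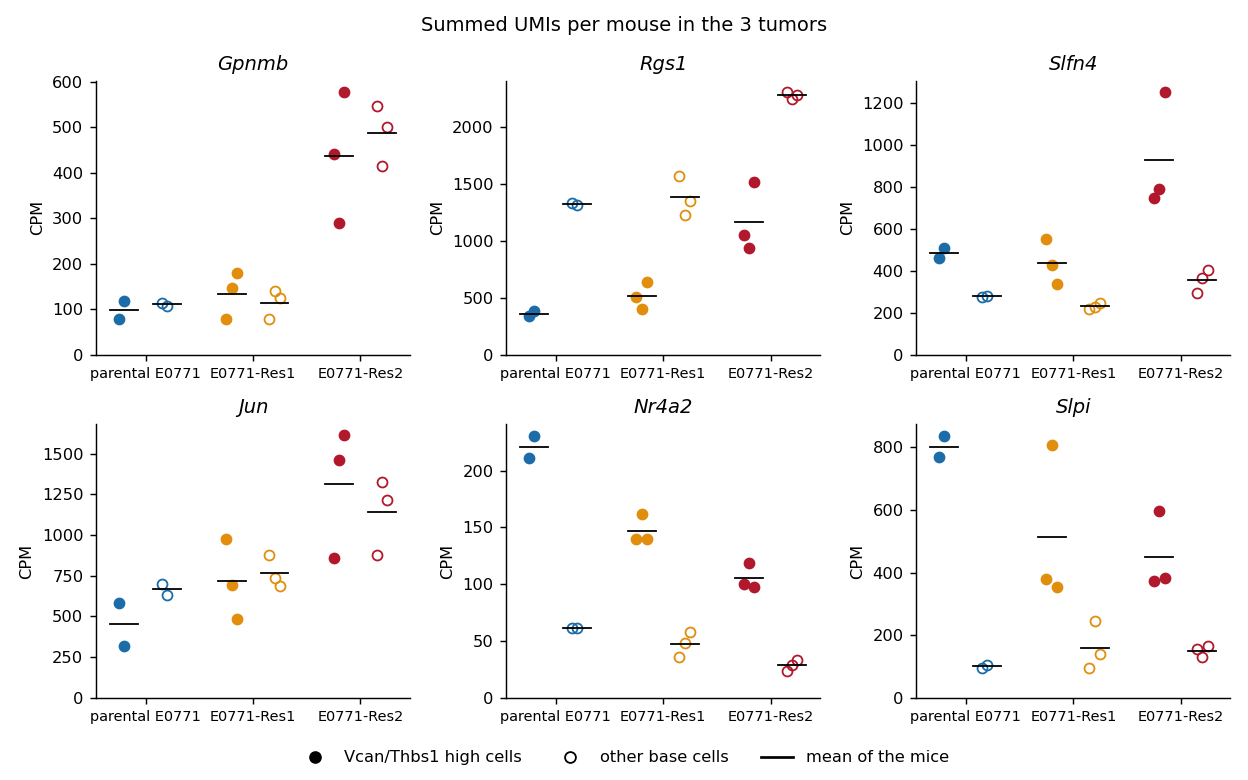
Counts per 1000000 UMIs (CPM) of 6 genes in Vcan/Thbs1-high cells (filled) and other base cells (open) of the 3 tumor lines. Each point is 1 mouse and lines are group means. *Gpnmb*, *Rgs1* and *Slfn4* are highest in the 3 E0771-Res2 mice in the filled points, for *Rgs1* at 932 to 1515 CPM, and *Nr4a2* is lowest there.

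A difference between tumors that itself differed between Vcan/Thbs1-high and other base cells was found for 1 of 9263 genes (0.0108%), *Slpi*, by the interaction of cell set and resistance. In Vcan/Thbs1-high cells *Slpi* stood at 768 and 837 CPM in the parental, 378, 806 and 355 in the E0771-Res1 mice and 374, 595 and 382 in the E0771-Res2 mice. In other base cells it stood at 94.9 and 105, 94.2, 247 and 140, and 155, 129 and 165 CPM. E0771-Res1 replicate 2 was high in both sets. The resistant mice were lower in Vcan/Thbs1-high cells by 0.70 and higher in other base cells by 0.62 on the log2 scale, each short of the threshold on its own (adjusted p = 0.481 and 0.275), and the difference of these differences was -1.36 ± 0.20 (edgeR, adjusted p = 4.46e-04). With cells selected by *Vcan* and *Thbs1* alone it was -1.001 and missed the threshold (adjusted p = 0.529). Early monocytes, at 425 to 676 CPM, had a difference of 0.07 (adjusted p = 0.936).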

How the data were processed

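Live CD45+ cells of 8 mice were measured with the Chromium 3′ v3.1 kit. The authors counted UMIs with Cell Ranger 6.1.2, per the file headers, and mm10, per the processing notes, and deposited raw counts of 32285 genes per mouse without normalization; 9 sample tags per file stayed out of all sums. Of 11430 deposited cells, 10605 had 500 to 6000 genes and under 10% mitochondrial counts, 9731 also had 2000 UMIs and 8375 were base cells. The selected cells and the gene lists were chosen with earlier results of these data known.

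UMI counts were summed per mouse and cell set and tested with edgeR 4.0.16 in R 4.3.3 (TMM, filterByExpr, quasi-likelihood, Benjamini-Hochberg over all genes tested, called at 0.05), with 1 fit over the 3 tumor groups or, between cell sets, mouse as a block. The 8 genes of the selection, mt-, Rpl, Rps and Gm genes and 38 repeated symbols were left out. CPM are counts per 1000000 of all UMIs of the summed cells. Single genes were named by rule: the 10 largest changes per direction with an adjusted p under 0.05, a mean log2 CPM of 5 or more and no overlap between groups (between sets, the same sign in every mouse), per list the 3 most abundant and the 3 with the smallest p, and genes that the paper names. Other list genes, given without values, were named after their calls were seen. Shares were compared with exact permutation tests in scipy 1.17.1 (Python 3.11.15). Binomial 95% intervals of a share are exact and cover counting error only. Replicates of a group differed by more than sampling noise (chi-square per degree of freedom 2.28 to 3.63). Scrublet in scanpy 1.11.5 marked 30 of 11430 cells (0.262%), which was taken as a failed call, so doublets were kept and removal of the highest 5% of scores (33 of 539 selected cells) was an alternative. Alternatives were DESeq2 1.42.0, other size factors, no filter on low counts, selection of the highest 5% or 12%, within each mouse, on thinned cells or by *Vcan* and *Thbs1* only, removal of 50 selected cells (9.28%) with a defining gene of another cell type or of high doublet scores, other denominators of the share, leaving out each mouse and a replicate block. Counting early monocytes above the threshold was added after the data were seen.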

Additional observations from a re-analysis of the deposited data

Results flagged for a closer look

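Within Vcan/Thbs1-high cells, the E0771-Res2 and E0771-Res1 mice differed in 3 genes by a test of that difference, each higher in E0771-Res2: *Rgs1* by 1.22, *Gpnmb* by 1.74 and *Slfn4* by 1.12 on the log2 scale (edgeR's quasi-likelihood test, adjusted p = 0.00969, 0.00969 and 0.0445). All 3 E0771-Res2 mice were above all 3 E0771-Res1 mice for each gene. With cells selected within each mouse none of the 3 was called (adjusted p = 0.164, 0.164 and 0.177), nor with the highest 5% of cells (0.253, 0.0701 and 0.0701). On thinned cells *Rgs1* and *Slfn4* were not called (0.0919 and 0.0608), and *Slfn4* was not with only the mice of the 2 groups (0.0662). *Rgs1* and *Gpnmb* were also lost without E0771-Res2 replicate 1 (0.0682 and 0.0759) or 3 (0.157 and 0.172). *Slfn4* was no longer called without E0771-Res2 replicate 1 (adjusted p = 0.0759), E0771-Res2 replicate 3 (0.379), E0771-Res1 replicate 2 (0.103) or E0771-Res1 replicate 3 (0.193), while over all its alternatives the difference ran from 0.80 to 1.33.

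The difference between resistant and parental mice in *Slpi* was not the same in Vcan/Thbs1-high and in other base cells, by an interaction of -1.36 ± 0.20 on the log2 scale (adjusted p = 4.46e-04). Among its alternatives it ran from -1.52 to -1.001, and it was no longer called when cells were selected by *Vcan* and *Thbs1* alone (-1.001, adjusted p = 0.529). *Slpi* was also 1 of the genes with the largest difference between the sets, and the part of the median depth of the selected cells, 5068 UMIs in E0771-Res2 replicate 3 to 7960 in E0771-Res1 replicate 2, was not tested.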

How the results depend on the processing

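Counts of genes that differed between tumors depended on the selection and the filter, and the cause was not tested. Between all resistant and parental mice the count of 0 became 3 with DESeq2, 5 on thinned cells, 9 with the highest 12%, 10 within each mouse and 56 without a filter on low counts, and without single mice it was 0 to 1. For E0771-Res1 against parental mice the 0 became 1 on thinned cells, 1 with the highest 12%, 2 within each mouse and 36 without the filter, and 0 to 0 without single mice. For E0771-Res2 against parental mice the 10 became 32 on thinned cells, 58 with the highest 12%, 31 within each mouse, 105 without the filter, 16 with only the mice of both groups and 6 without cells with a gene of another cell type; without single mice it was 2 to 15 (2 without E0771-Res2 replicate 3, 6 and 3 without parental replicates 1 and 3). For E0771-Res2 against E0771-Res1 the 3 became 7 with DESeq2, 1 on thinned cells, 32 with the highest 12%, 0 with the highest 5%, 86 without the filter, 15 by *Vcan* and *Thbs1* alone, 18 without cells with a gene of another type and 17 without high doublet scores, and 0 to 11 without single mice (0 without E0771-Res2 replicate 1 or 3). For the interaction the 1 became 3 on thinned cells, 2 with the highest 12%, 14 with the highest 5%, 19 without the filter, 3 without cells with a gene of another type and 3 without high doublet scores, and 1 to 7 without single mice. Against early monocytes DESeq2 gave 1092 in place of 1641, and without single mice the counts were 1440 to 1650, 2672 to 2978 against other base cells and 2622 to 2895 against C1q-high macrophages.

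Equal replicate numbers did not pair the mice (correlations of -0.0686 to 0.114), and a replicate block gave 3, 0, 11 and 12 genes in the order of the tumor comparisons, without *Plk2* (adjusted p = 0.0621) and *Ptms* (0.0890) among the 11, and a share difference of -6.90 points between resistant and parental mice (exact p = 0.111). Differences in share kept their direction in all alternatives run and, without single mice, ran from -7.65 to -3.85 points for all resistant, -5.12 to -1.30 for E0771-Res1 and -10.2 to -6.40 for E0771-Res2 against parental mice, and from -7.01 to -3.18 between the lines. Without E0771-Res1 replicate 2 the first was -7.03 (exact p = 0.0476).

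Of single genes, *Rgs1* between E0771-Res2 and parental mice stayed called in all alternatives run (1.53 to 2.30). The sign changed for *Cd74* between these mice within each mouse (0.016) and without parental replicate 1 (0.12; -0.79 to 0.12 without single mice), for *S100a8* and *S100a9* against other base cells with DESeq2 (-0.061 and -1.93) and without E0771-Res2 replicate 2 (-0.14 and -0.034, against up to 1.73 and 2.14 without another mouse), and for *Ly6c2* against early monocytes with *Vcan* and *Thbs1* alone (-0.049); none of these passed the test there. A mouse had 49 to 121 selected cells, and the part of this depth in the tumor comparisons was not tested. Leaving out 1 parental mouse leaves the other alone in its group, and it is then assumed to vary like the mice of the other groups.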

Other observations

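Transcription factor genes of monocytes and macrophages were divided in Vcan/Thbs1-high cells, given here as counts and values with no explanation. Against other base cells 12 of 24 were higher and 5 lower (20.1% and 17.7% of all genes tested), among them *Cebpb*, which drives monocyte inflammatory genes, at 0.90 on the log2 scale. Against early monocytes 4 of 22 were higher, with *Runx3* at 1.22, and 7 lower, against 19% and 18.3% of all genes tested, so the share that was higher was near this background. Of 11 chemokine and chemoattractant receptors, 4 were higher than in other base cells, with *Ccr1* at 1.41, and 2 lower.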
